A study of Mus musculus with 4 samples.

Results

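The 47 genes described here belong to the lysosome, the acidic compartment in which cells break down proteins, sugars and lipids, and to autophagy, the pathway that encloses parts of the cytoplasm in a double membrane and delivers them to it. They were taken by name: a pair of transcription factors and a calcium channel that regulate lysosome number, 4 membrane and lipid transfer proteins, 5 proteases, 9 glycosidases and lipid hydrolases or their cofactor, 5 subunits of the proton pump, 6 proteins of the Atg8 family and cargo receptor, 7 members of the initiation and lipid kinase complexes, and 8 proteins of membrane elongation and conjugation. Each gene was read from its brightest probe, and all 47 were among the 11958 of 20832 genes with a named probe that passed the background filter, which asks for a signal well above background on both arrays of Met-low, of Met-high or of both. On all 4 arrays 46 of the 47 were well above background, the exception being *Rb1cc1*, which was so on both Met-low arrays and on 1 Met-high array.

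TFEB and TFE3 are basic helix-loop-helix transcription factors, held in the cytoplasm when nutrients are plentiful and moved to the nucleus on starvation, where they bind E-boxes near lysosomal and autophagy genes. MITF, the master regulator of melanocytes, belongs to the same family and binds related boxes, and the melanosome, in which pigment is made, is itself a relative of the lysosome. In autophagy, a kinase complex built around ULK1 and a lipid kinase complex that contains Beclin start the membrane. An ubiquitin-like conjugation system attaches the Atg8 proteins to this membrane, and receptors such as p62 bring in the cargo.

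Gene expression was measured in B16-F10, a mouse melanoma cell line, which was separated by cell sorting on surface Met, the receptor for hepatocyte growth factor, into Met-low and Met-high cells. Both populations were then grown for 3 days in RPMI 1640 medium with serum, so that each population is a sorted fraction of 1 line after a period in culture. For each of them 2 independently prepared RNA samples were hybridised, in 1 colour (Cy3), to Agilent mouse arrays. These 4 arrays lay on 1 slide and were scanned once, with the populations at different positions, so an effect of position cannot be told apart from one of population.

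Array brightness, taken as the 75th percentile of the intensity, ran from 858 to 1331 over the arrays, at most 53.6% of spots on an array were well above background, and 0 spots were saturated. Signals are given as log2 of the intensity over that percentile of the same array, and a log2 ratio is the Met-high mean minus the Met-low mean. *Met* (NM_008591) itself gave signals of -0.26 and -0.89 in Met-low and of 1.03 and -0.43 in Met-high cells, so Met-high replicate 2 lay between the Met-low arrays. All 7 melanocyte genes examined (*Pmel*, *Tyr*, *Tyrp1*, *Dct*, *Mlana*, *Sox10* and *Mitf*) were above background on every array, with a summed linear signal of 1385 to 1691 times the array percentile in Met-low and 1493 to 1698 times in Met-high cells. Of the 6 macrophage genes with a probe, 1 passed the background filter (*Csf1r*), while *Ptprc*, *Cd14*, *Tyrobp* and *Aif1* were above background on no array, and the summed signal was 1.99 to 2.09 in Met-low and 2.18 to 2.75 in Met-high cells. Of the fibroblast genes, 1 of 6 passed (*Col1a2*, log2 ratio -1.10, adjusted p = 0.031 from limma), with *Dcn*, *Lum* and *Pdgfra* above background on no array and a summed signal of 0.628 to 0.685 in Met-low and 0.318 to 0.361 in Met-high cells. Whether these markers have a part in the values below was not tested. In such bulk samples, fewer cells of a type and less RNA per cell cannot be told apart.

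The promoter sequences are shown first, because TFEB and TFE3 bind E-boxes near lysosomal and autophagy genes. RefSeq promoters of the mouse assembly GRCm38.p6, from 250 bases before to 50 after the start of the gene, were at hand for 37 of the 47 genes. The box CACGTG, which reads the same on both strands, stood in 14 of these 37 genes (37.8%), against 8.09% of all 27025 genes with a promoter and 11.8% of the 9634 that were also compared on the arrays. TCACGTG on either strand, which contains the first box, stood in 12 of 37 (32.4%), against 4.29% of all genes and 7.10% of those compared. TCATGTG, a box that MITF is known to bind, stood in 2 of 37 (*Ctsa* and *Gla*, 5.41%), against 4.31% and 2.81%. The 12 genes with TCACGTG were *Mcoln1*, *Lamp1*, *Ctsa*, *Ctsd*, *Gaa*, *Gla*, *Glb1*, *Atp6v0d1*, *Atp6v1a*, *Atg14*, *Atg3* and *Atg7*. They came from all the roles but the Atg8 family, of which at least *Map1lc3a* had no promoter to search.

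The stretches below are those of the 5 genes with at least 2 such boxes upstream of the start, printed in the direction of the gene and with the letters of TCACGTG or its reverse complement CACGTGA in capitals. They are the lysosomal membrane protein *Lamp1* (chr8:13159090-13159160, plus strand, 71 bases up to the start), the calcium channel *Mcoln1* (chr8:3500438-3500489, plus strand), the protease *Ctsd* (chr7:142387910-142388077, minus strand), the glycosidase *Gla* (chrX:134601184-134601242, minus strand) and the conjugating enzyme *Atg3* (chr16:45158725-45158773, plus strand).
Lamp1: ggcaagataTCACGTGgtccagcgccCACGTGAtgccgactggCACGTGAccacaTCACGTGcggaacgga
Mcoln1: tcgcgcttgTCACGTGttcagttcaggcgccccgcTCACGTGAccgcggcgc
Ctsd: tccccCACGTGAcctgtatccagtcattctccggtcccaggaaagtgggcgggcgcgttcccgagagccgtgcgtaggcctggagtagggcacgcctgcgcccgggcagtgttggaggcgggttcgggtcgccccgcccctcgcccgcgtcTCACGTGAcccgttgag
Gla: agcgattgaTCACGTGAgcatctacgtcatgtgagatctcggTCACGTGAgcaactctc
Atg3: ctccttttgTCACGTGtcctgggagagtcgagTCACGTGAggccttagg
*Lamp1* had 4 boxes within these 71 bases, and each of the other 4 genes had 2 in the stretch shown. Between its pair of boxes, *Gla* also had TCATGTG, left in lower case.

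None of the lysosome and autophagy genes passed the test between the sorted populations, and 46 of the 47 had means within 2-fold of each other. With limma and Benjamini-Hochberg adjustment over all genes, 0 of the 47 were called at an adjusted p under 0.05, against 5.77% of all genes compared. The smallest adjusted p among the 47 was 0.089, for *Rb1cc1*, which passed the background filter through the Met-low arrays alone. At an unadjusted p under 0.05 there were 5 of 47 (10.6%), against 26.2% of all genes. Of these 5, *Tfeb* had the higher mean in Met-high cells (1 of 47, against 14.3% of all genes), and *Rb1cc1*, *Atg12*, *Atg13* and *Ctsl* had the lower one there (4 of 47, against 11.9%). A mean difference over 2-fold was found for 1 of 47 genes, *Rb1cc1*, against 7.73% of all genes. In it the Met-low mean was the higher, as in 5.29% of all genes, and 0 of 47 were over 2-fold in the other direction, against 2.43%. The 95% interval of the ratio lay within 2-fold in both directions for 41 of 47 genes (87.2%), against 68.6% of all genes, and the 6 others were *Rb1cc1*, *Atg13*, *Ulk1*, *Map1lc3a*, *Npc1* and *Mcoln1*.

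Of the 47 genes, 26 had their higher mean in Met-high cells (55.3%), against 59.5% of all genes. Their median log2 ratio was 0.03 and that of all genes 0.10, and with the percentile taken over detected probes alone these medians were -0.12 and -0.05. The median size of the log2 ratio, without its sign, was 0.21 for the 47 genes and 0.30 for all genes. Arrays of the populations did not overlap for 21 of 47 genes (44.7%), against 58.3% of all genes, Met-high being above in 13 (against 35.7%) and Met-low in 8 (against 22.6%). At the spread estimated in this fit, which treats the 4 arrays as unpaired, a median gene of the 47 would have needed a 1.89-fold difference to be called, with a range from 1.73-fold to 6.52-fold, so smaller differences could not be called in this fit. Without Met-high replicate 2, the array on which *Met* lay between the Met-low arrays, the median log2 ratio of the 47 genes was 0.04 and that of all genes 0.08.

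**Figure D1:**
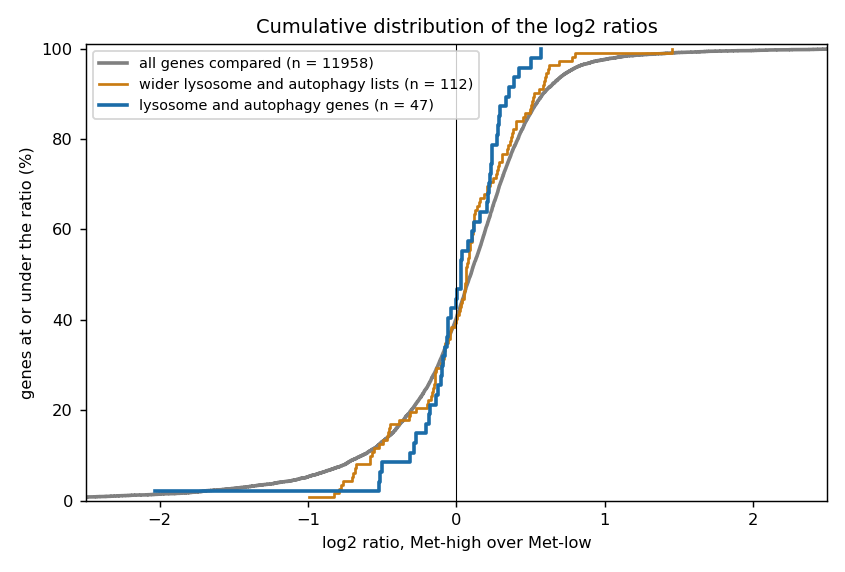
Cumulative share of genes (vertical axis, percent) at or under each log2 ratio of Met-high over Met-low (horizontal axis, cropped at 2.5 on either side), for all 11958 genes compared, for 112 further lysosome and autophagy genes and for the 47 genes described here. The curve of the 47 genes is the steepest of the lines around 0, and 41 of the 47 genes have a log2 ratio between -0.5 and 0.5 (87.2%, against 72.6% of all genes).

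**Figure D2:**
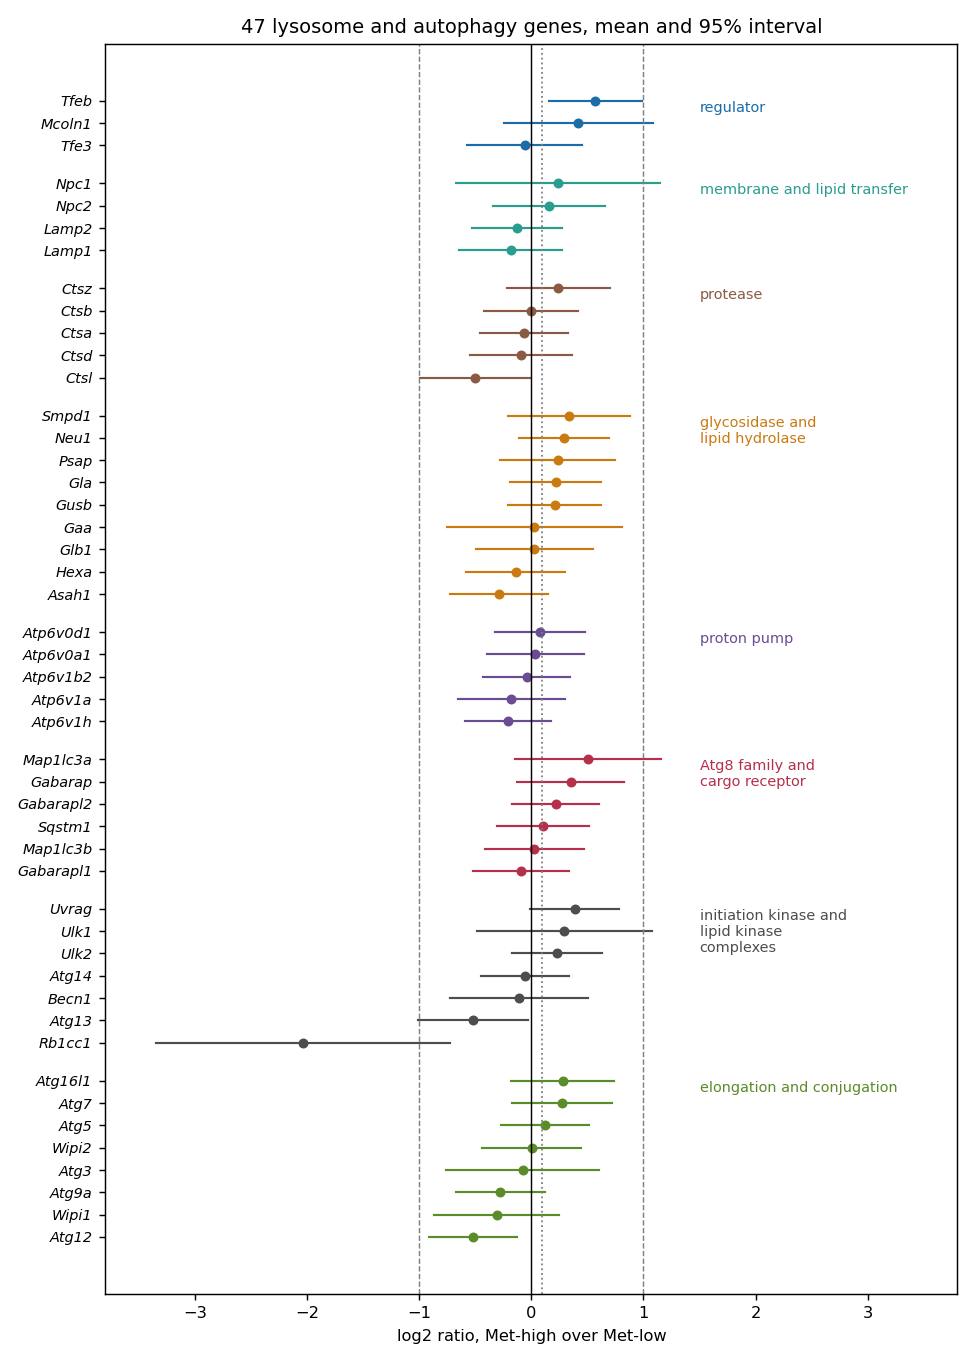
Log2 ratio of Met-high over Met-low cells (horizontal axis) for each of the 47 genes, grouped by role, with points for the ratio of the means (2 arrays against 2) and lines for the 95% interval of limma. Dashed lines mark 2-fold, the dotted line marks the median of all genes at 0.10, and *Rb1cc1* is the only point beyond a dashed line.

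Among the regulators, *Tfeb* (NM_001161722) had signals of -1.83 and -2.01 in Met-low and of -1.40 and -1.30 in Met-high cells. Both Met-high arrays were thus above both Met-low arrays. The log2 ratio was 0.57 (standard error 0.16, 95% interval 0.16 to 0.99, adjusted p = 0.113), a 1.49-fold difference of the means that did not pass the test. For *Tfe3* (NM_172472) the signals were 2.97 and 2.62 in Met-low and 2.87 and 2.60 in Met-high cells, and the arrays were interleaved. Its log2 ratio was -0.06 (95% interval -0.57 to 0.45, adjusted p = 0.877), and its second probe gave 0.14. *Mcoln1* (NM_053177), which releases calcium from the lysosome and so activates TFEB, had 2.57 and 1.99 in Met-low and 2.90 and 2.51 in Met-high cells. The lower Met-high array was below the higher Met-low array, and the log2 ratio was 0.42 (standard error 0.26, 95% interval -0.25 to 1.09, adjusted p = 0.362).

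Of the 4 membrane and lipid transfer genes, none passed the test. *Npc1* (NM_008720), which exports cholesterol from the lysosome, had the largest difference of the 4, with 0.35 and -0.51 in Met-low and 0.46 and -0.15 in Met-high cells. The spread within each population exceeded the difference between them, a log2 ratio of 0.24 (95% interval -0.67 to 1.14, adjusted p = 0.709). *Lamp1* (NM_010684) and *Lamp2* (NM_010685), the main glycoproteins of the lysosomal membrane, had log2 ratios of -0.18 (95% interval -0.65 to 0.28) and -0.13 (-0.53 to 0.27). The arrays overlapped for *Lamp1*, while for *Lamp2* both Met-high arrays were lower, 1 of them by only a small margin. A second probe of *Lamp2* gave -0.35. *Npc2*, which hands cholesterol to NPC1, had a log2 ratio of 0.16.

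The 5 proteases had log2 ratios from -0.50 to 0.24. *Ctsl* (NM_009984), a cysteine cathepsin, had 4.39 and 4.02 in Met-low and 3.79 and 3.62 in Met-high cells. Neither Met-high array reached the Met-low arrays, and the difference was a log2 ratio of -0.50 (standard error 0.20, 95% interval -0.99 to -0.01, unadjusted p = 0.048, adjusted p = 0.187). *Ctsb* (NM_007798), another cysteine cathepsin, had 5.26 and 5.07 in Met-low and 5.21 and 5.12 in Met-high cells, so that the Met-high arrays fell between the Met-low arrays. The 95% interval of its ratio ran from -0.42 to 0.42. *Ctsz* was higher on both Met-high arrays, by 0.24, and the serine carboxypeptidase *Ctsa* and the aspartic protease *Ctsd* had log2 ratios of -0.06 and -0.10 with overlapping arrays.

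The Met-high mean was the higher for 7 of the 9 glycosidases and lipid hydrolases, with a median log2 ratio of 0.21, and none passed the test. With quantile normalization, and also with the percentile over detected probes, this held for 5 of the 9, with a median of 0.03 and 0.06. *Smpd1* (NM_011421), acid sphingomyelinase, had 4.15 and 3.71 in Met-low and 4.39 and 4.14 in Met-high cells. The log2 ratio was 0.34 (standard error 0.22, 95% interval -0.21 to 0.88, adjusted p = 0.376). Its Met-high replicate 2 was just under Met-low replicate 1. The sialidase *Neu1*, the alpha-galactosidase *Gla* and the beta-glucuronidase *Gusb* were higher on both Met-high arrays, with log2 ratios of 0.29, 0.22 and 0.21. *Asah1*, acid ceramidase, was lower on both Met-high arrays, with a log2 ratio of -0.29. The 4 others, *Psap* (the precursor of the saposins, which present lipids to these enzymes), *Gaa*, *Glb1* and *Hexa*, had overlapping arrays and log2 ratios from -0.14 to 0.24. *Gaa* (NM_008064), which degrades glycogen, showed a spread between replicates alone, with 5.97 and 5.32 in Met-low and 5.97 and 5.38 in Met-high cells.

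The 5 subunits of the proton pump, which acidifies the lysosome, had the narrowest range of the groups, with log2 ratios from -0.21 to 0.08. None passed the test. For 11 other pump subunits, part of the further lists below, the log2 ratios ran from -0.16 to 0.49, also with none past the test. *Atp6v1h* (NM_133826), the regulatory subunit H of the cytoplasmic sector, had 1.25 and 1.26 in Met-low and 1.08 and 1.02 in Met-high cells. The Met-high arrays were both lower, by a log2 ratio of -0.21 (standard error 0.15, 95% interval -0.59 to 0.18, adjusted p = 0.430). For the membrane subunits *Atp6v0d1* and *Atp6v0a1* and the cytoplasmic subunits *Atp6v1b2* and *Atp6v1a* the arrays overlapped.

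In the Atg8 family, whose proteins are attached to the autophagosome membrane, *Map1lc3a* (NM_025735) had -0.37 and 0.03 in Met-low and 0.06 and 0.61 in Met-high cells. The Met-high arrays were both higher, the lower of them by only a small margin, and the log2 ratio was 0.50 (standard error 0.26, 95% interval -0.15 to 1.16, adjusted p = 0.281). *Map1lc3b* (NM_026160), the form whose lipidation is commonly followed as a measure of autophagy, had 3.77 and 3.51 in Met-low and 3.61 and 3.72 in Met-high cells. Here the Met-high arrays fell between the Met-low arrays, with a log2 ratio of 0.03 (95% interval -0.41 to 0.47, adjusted p = 0.935).

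*Gabarap* (NM_019749) had 4.79 and 5.01 in Met-low and 5.10 and 5.39 in Met-high cells. All Met-high values exceeded the Met-low values, with a log2 ratio of 0.35 (95% interval -0.13 to 0.83, adjusted p = 0.299) and 0.36 from its second probe. *Gabarapl2* (NM_026693) had 3.78 and 3.79 in Met-low and 3.96 and 4.04 in Met-high cells. Replicates of each population lay close together and apart from the other population, but the log2 ratio of 0.22 (95% interval -0.17 to 0.60, adjusted p = 0.417) did not pass the test. *Gabarapl1* (NM_020590) had 5.41 and 5.57 in Met-low and 5.30 and 5.49 in Met-high cells, with interleaved arrays and a log2 ratio of -0.09 (95% interval -0.52 to 0.33, adjusted p = 0.758). *Sqstm1* (NM_011018), which encodes the cargo receptor p62, had 4.90 and 4.77 in Met-low and 5.01 and 4.85 in Met-high cells, also interleaved, with a log2 ratio of 0.10 (95% interval -0.31 to 0.52, adjusted p = 0.721). The mean of 5 of these 6 genes was higher in Met-high cells, and of 3 of 6 with quantile normalization or the percentile over detected probes, under which *Map1lc3b* and *Sqstm1* turned to -0.14 and -0.01 or to -0.12 and -0.04.

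*Rb1cc1* (NM_009826), the scaffold on which the ULK1 kinase complex is assembled, had the largest difference of the 47 genes. Its signals were -2.20 and -3.49 in Met-low and -4.39 and -5.36 in Met-high cells. The populations did not overlap, but the replicates of each population were also far apart. Met-low cells had a mean of -2.84 ± 0.91 (SD, n = 2) and Met-high cells one of -4.88 ± 0.69 (SD, n = 2). The log2 ratio was -2.03 (standard error 0.52, 95% interval -3.34 to -0.72, unadjusted p = 0.00995 and adjusted p = 0.089 from limma). This brightest probe passed the background filter through the Met-low arrays alone, where it was high, so the ratio and its p are given as a description. On Met-high replicate 2 its signal of -5.36 was under the dimmest there that counted as well above background (-5.25). The second probe of *Rb1cc1* was well above background on both Met-low arrays and on neither Met-high array. It had -3.59 and -3.32 in Met-low and -6.68 and -6.92 in Met-high cells. In a fit of all 19796 probes, which called 2.63% of them, that probe had an adjusted p of 0.016 and was the only one called of the 61 probes of these genes. It passed the background filter through the Met-low arrays alone, where it was high, so its p is given as a description. Since its Met-high signal was not well above background, only a bound is given for this probe. With the background correction of the scanner, the difference of the means was at least 3.14-fold. For this bound, the Met-high side was set on each array to the dimmest signal there that still counted as well above background. It was then averaged over both arrays, and the spread between replicates is left out of the bound. Leaving out Met-low replicate 2 or Met-high replicate 1 gave the brightest probe log2 ratios of -2.68 and -2.52. Leaving out Met-low replicate 1 or Met-high replicate 2 gave log2 ratios of -1.39 and -1.55. Each of these fits left a single array in 1 population. With a normexp background correction the ratio was -0.97 (adjusted p = 0.108).

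The other genes of the initiation complexes went in either direction. *Atg13* (NM_145528), the partner of RB1CC1 in the ULK1 complex, had 2.32 and 2.05 in Met-low and 1.82 and 1.52 in Met-high cells. The arrays did not overlap, and the log2 ratio was -0.52 (standard error 0.19, 95% interval -1.01 to -0.03, unadjusted p = 0.042, adjusted p = 0.175). The kinases *Ulk1* and *Ulk2* themselves had log2 ratios of 0.29 with overlapping arrays (95% interval -0.49 to 1.07) and 0.23 with both Met-high arrays above the Met-low arrays (-0.18 to 0.63). In the lipid kinase complex, *Uvrag* (NM_178635), named after its values were seen, had 2.99 and 3.12 in Met-low and 3.45 and 3.43 in Met-high cells. Its log2 ratio of 0.38 had a 95% interval from -0.01 to 0.78 (adjusted p = 0.200). *Becn1*, which encodes Beclin, and its partner *Atg14* had overlapping arrays and log2 ratios of -0.11 and -0.06.

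Among the 8 elongation and conjugation genes the largest difference was that of *Atg12* (NM_026217), the ubiquitin-like protein joined to ATG5. It had 1.62 and 1.55 in Met-low and 1.12 and 1.02 in Met-high cells. The populations were apart by more than the gap between replicates, with a log2 ratio of -0.52 (standard error 0.16, 95% interval -0.91 to -0.13, unadjusted p = 0.019, adjusted p = 0.121), and the second probe gave -0.63. *Atg5*, *Atg16l1*, which binds the ATG12-ATG5 conjugate, and *Atg7*, the activating enzyme of the system, were higher on both Met-high arrays, with log2 ratios of 0.12, 0.28 and 0.27. The second probe of *Atg7* gave -0.03. *Atg9a*, a membrane protein of the vesicles that seed the autophagosome, was lower on both Met-high arrays, with a log2 ratio of -0.28. Its signals, from -4.14 to -4.50, were near the dimmest that counted as well above background (-4.59 to -5.25 over the arrays). *Atg3*, *Wipi1* and *Wipi2* had overlapping arrays and log2 ratios from -0.31 to 0.00.

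**Figure D3:**
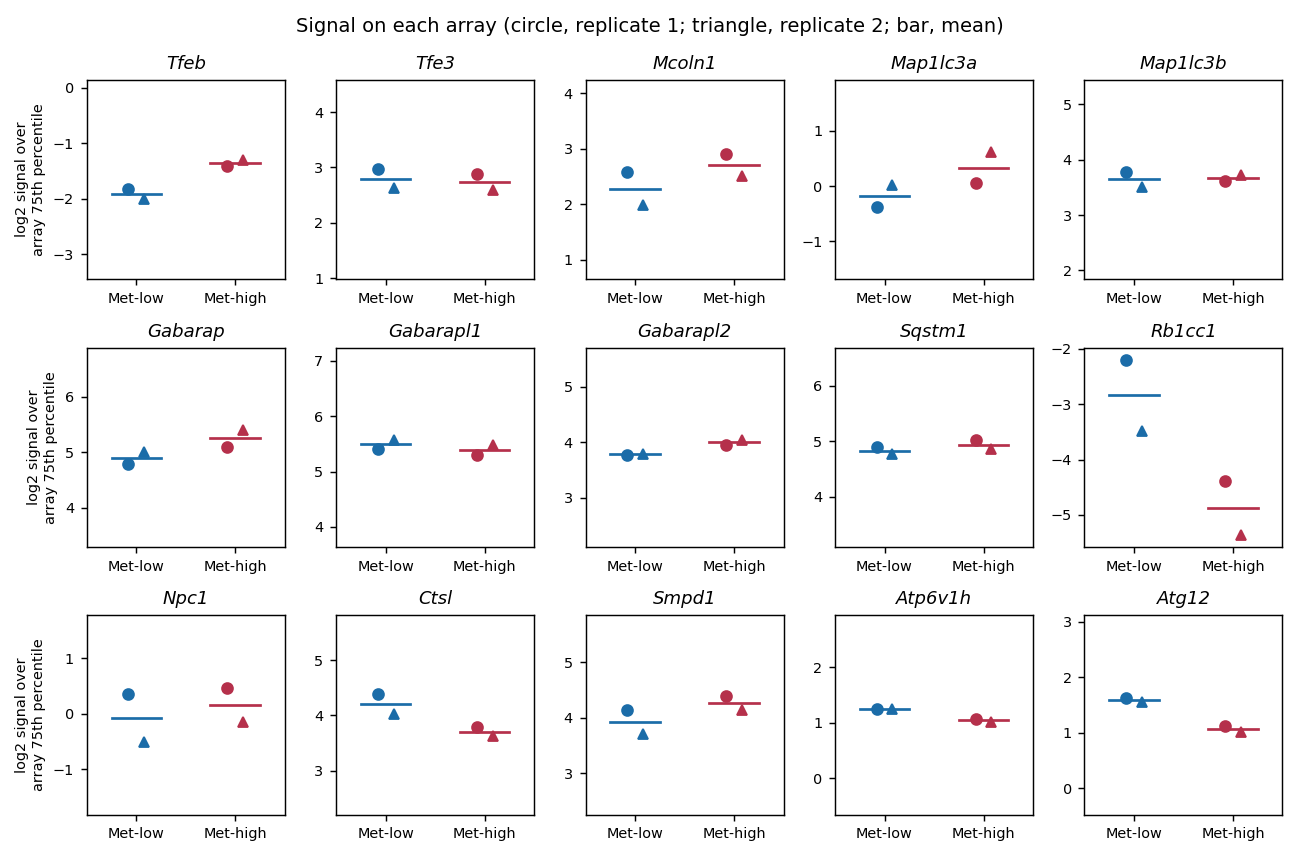
Signal of 15 genes on each array (vertical axis, log2 of the intensity over the 75th percentile of the array, with the same span of 3.6 in every panel), for Met-low and Met-high cells. Circles are replicate 1, triangles replicate 2 and bars the mean of 2, and levels are not comparable between panels because each gene has its own probe. *Rb1cc1* has the widest gap between populations and the widest gaps between replicates, while *Tfeb*, *Atg12* and *Gabarapl2* have tight replicates and a gap of 0.57 or less.

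A second probe was kept for 14 of the 47 genes. In 10 of these 14 genes both probes gave the same sign, and in 11 the log2 ratios were within 0.5 of each other. The exceptions to the latter were *Rb1cc1*, *Wipi1* and *Wipi2*, the last pair being proteins that bind the lipid made by the initiation complex. For *Wipi1* the second probe gave 0.21 (standard error 0.64) against -0.31, and its Met-high arrays lay far apart, at -1.77 and -3.67. For *Wipi2* the second probe gave 0.50 (standard error 0.19) against 0.00.

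**Figure D4:**
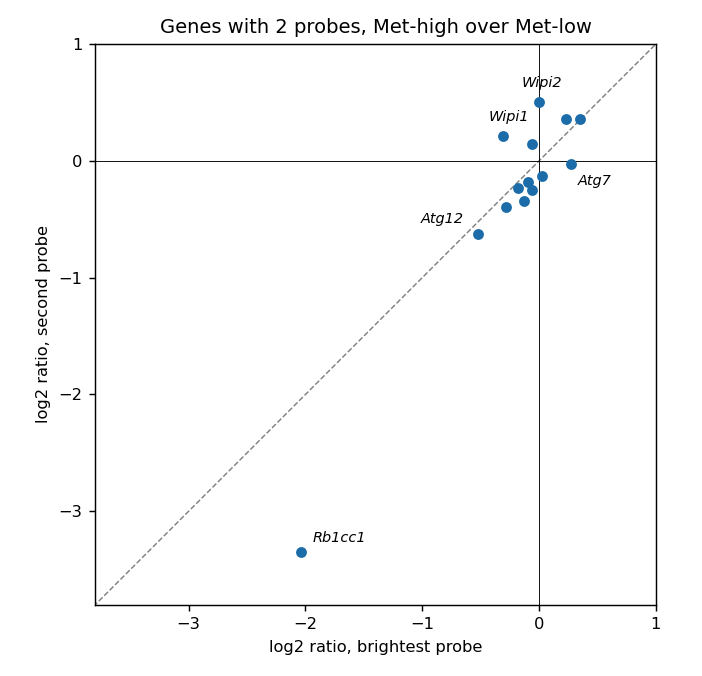
Log2 ratio of Met-high over Met-low cells from the brightest probe (horizontal axis) against the second probe (vertical axis) of the 14 genes with 2 probes, each point being a gene and the dashed line equal ratios. 11 points lie within 0.5 of the line, and *Rb1cc1* stands apart at -2.03 and -3.35, the second value resting on a Met-high signal not well above background.

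The E-boxes shown above were set beside the ratios. The 12 genes with TCACGTG in the promoter had a median log2 ratio of -0.01, ranging from -0.18 for *Lamp1*, the gene with the most boxes, to 0.42 for *Mcoln1*, with the Met-high mean the higher in 6 and the Met-low mean in 6. The 25 genes whose promoter did not hold these letters had a median of 0.12. Over all genes compared, the median was 0.11 for the 684 with the box and 0.10 for the 8950 without it.

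Further lysosome and autophagy genes, 119 in all, were taken from lists of hydrolases, membrane and sorting proteins, nutrient sensing at the lysosome, other autophagy genes, other cargo receptors and other pump subunits. Of the 112 that passed the background filter, limma called 2 higher in Met-high cells (1.79%, against 1.95% of all genes) and 0 higher in Met-low cells (against 3.82%). At an unadjusted p under 0.05 the Met-high mean was the higher in 13 (11.6%, against 14.3% of all genes) and the Met-low mean in 17 (15.2%, against 11.9%). The median log2 ratio was 0.06, and the medians of the lists ran from -0.14 for the cargo receptors to 0.17 for the membrane and sorting proteins. *Rragb*, a GTPase that recruits the mTOR kinase to the lysosome, had -5.69 and -5.46 in Met-low and -3.92 and -4.32 in Met-high cells. Not well above background on either Met-low array, it passed the filter through the Met-high arrays alone, where it was high, and its call is given as a description. With the background correction of the scanner and a bound set as for *Rb1cc1*, it was at least 1.60-fold higher in Met-high cells (fitted log2 ratio 1.45, standard error 0.21, adjusted p = 0.025). With a normexp background correction the fitted log2 ratio was 0.52 (adjusted p = 0.158), which lies under that bound. *Cln3*, a lysosomal membrane protein that is lost in a juvenile storage disease, had -0.17 and -0.21 in Met-low and 0.63 and 0.58 in Met-high cells. Replicates were close together, and the log2 ratio of 0.80, with a standard error of 0.15 and an adjusted p of 0.0499 from limma, was just past the threshold. Without Met-low replicate 1 or 2 the adjusted p of *Cln3* was 0.149 and 0.150, and without Met-high replicate 1 or 2 it was 0.114 and 0.118.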

How the data were processed

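The authors deposited the Feature Extraction output of each array, with a background-corrected Cy3 intensity per spot on a linear scale, and a table of processed log2 values. Version 11.0.1.1 stands in the file headers and 10.7.3.1 in the submitters' processing notes. In the deposited log2 table, 93.5% to 100% of 39297 probes were within 0.01 of the intensity over the 75th percentile of its array after centring each probe on its median, with column medians of 0.149, -0.035, 0.035 and -0.117. From the scanner output, flagged spots (207 to 232 per array) were left out, log2 intensities were set against the percentile, and repeated spots were averaged. A symbol was found for 27427 of 39429 probes through RefSeq accessions (GRCm38.p6, names and promoters only), and the brightest probe stood for a gene. The test was limma's (version 3.58.1, lmFit then eBayes, under R 4.3.3), two-sided, with Benjamini-Hochberg adjustment and a threshold of 0.05. The number of arrays limits the precision. The script was tested on simulated data. Figures were drawn with Python 3.11.15 and matplotlib 3.10.9.

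Genes named were those past the threshold or past 2-fold, or without overlap at over 1.5-fold, the regulators, the Atg8 family, *Sqstm1* and the gene with the largest difference in each role. Others are given by range or where a count is small. The genes and lists were chosen with earlier results of these data known. Alternatives were a normexp background (offset 50), quantile normalization, the percentile over detected probes, the background filter, flagged spots kept, the mean of probes, the authors' values, a variance trend, each array left out, a replicate block and, chosen after seeing the data, every probe by itself. Bounds replace the fold of a probe not above background in a population. Keratinocyte and endothelial marker lists had 1 gene each past the filter (*Krt14*, *Pecam1*), with log2 ratios of 0.38 and 0.07 and summed signals under those of the fibroblast list. No block for slide or scan was possible.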

Additional observations from a re-analysis of the deposited data

How the results depend on the processing

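In the unpaired fit of 2 arrays per population, a difference under 1.73-fold could be called for none of the 47 genes. Of the 47, the counts called higher and lower in Met-high cells, both 0, were 0 and 1 (*Rb1cc1*) with the mean of probes. That setting called 5.56% of all genes in either direction. They were also 0 and 1 with every probe by itself (chosen after seeing the data), which called 2.63% of all probes. In both settings the call was that of *Rb1cc1*, whose probes passed the background filter through the Met-low arrays alone, where they were high. It is given as a description. Without adjustment the counts of the main fit were 1 and 4, against 14.3% and 11.9% of all genes. The cause was not tested.

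The median log2 ratio of the 47 genes was -0.076 with quantile normalization and -0.12 with the percentile over detected probes, which moved the median of all genes from 0.10 to -0.05, and ranged from -0.066 to 0.13 when an array was left out. The 1 gene past 2-fold, *Rb1cc1*, became 0 with the normexp background, and 0 with a filter on all 4 arrays, which it did not pass. The further genes called higher, 2 in all, were 1 with normexp, quantile normalization, the detected percentile and the filter on all 4 arrays. They were also 1 with flagged spots kept, the mean of probes and the authors' values. In these settings 5.03% (quantile normalization) to 6.15% (detected percentile) of all genes were called in either direction. Without a filter the count was 0, where 0.0336% of all genes were called. Those called lower, 0 in all, were 1 with normexp, the mean of probes and the trend, which called 5.65%, 5.56% and 7.79% of all genes.

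Uncalled ratios that changed sign were those of *Map1lc3b* (-0.14 with quantile normalization, -0.12 with the detected percentile, -0.10 to 0.16 with an array left out), *Sqstm1* (-0.0064 and -0.043 in the same 2 scalings), *Tfe3* (0.041 with the mean of probes, -0.23 to 0.11 with an array left out) and *Npc1* (-0.20 to 0.67 with an array left out). The adjusted p of *Cln3* ran from 0.0137 to 0.220 and that of *Rragb* reached 0.158.

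The replicate numbers are shared by the populations, but no label says that they mark a pair. Deviations from the population means correlated at 0.54 over all genes and at 0.88 over the 47 genes, with the same sign in 39 of 47. A fit with the replicate number as a block called 29.7% of all genes, and of the 47 genes 2 higher (*Tfeb*, *Map1lc3a*) and 4 lower (*Rb1cc1*, *Atg12*, *Atg13*, *Ctsl*), and of the further genes 15 higher and 15 lower. Here too *Rb1cc1* had passed the background filter through the Met-low arrays alone, and its call is given as a description.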
